A study of Mus musculus with 24 samples.

Results

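The genes described here lie on mouse chromosome 13, the chromosome that carries Ptch1. They were chosen by their position and by their level: 208 genes of this chromosome had a mean of log2(intensity + 16) above 8.5 over the 24 arrays, out of 459 chromosome 13 genes measured and 12394 genes measured in all. The remaining 251 genes of the chromosome lay at or below that floor. Where a gene had several probe sets, which was so for 124 of the 208, the probe set with the highest mean was used. The floor fell between Elovl2, at 8.49, and Poc5, at 8.52. Because the members were selected on their mean over all arrays, a gene that is high in only some groups could enter through those groups, so the counts below describe expressed genes and not the whole chromosome. In gene order 122 members lie before Ptch1 and 85 after it.

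Ptch1 encodes Patched, the receptor for Sonic hedgehog. Without ligand Patched holds the membrane protein Smoothened inactive. Ligand relieves this, and Gli transcription factors then act on genes that keep granule neuron precursors of the young cerebellum dividing. Mice that carry 1 mutated Ptch1 allele can develop medulloblastoma, a tumor of this lineage, and loss of the remaining wild-type allele is a known event in such tumors. DNA copy number and the alleles expressed were not analysed here, so the values below are RNA levels only.

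The arrays hold whole cerebella of wild type mice at postnatal day 6 (P6, n = 2) and of 1 adult, and primary medulloblastomas (MB, n = 3) of adult Ptch1 mutant mice. The other 18 arrays are cultures of SMB21, SMB55 and SMB56, lines derived from spontaneous tumors of Ptch+/- mice and kept as neurospheres in DMEM/F12 with B27, so that all cultures and tumors share the Ptch1 mutation and the cerebella do not. Parental cells have 4 arrays of SMB21, 2 of SMB55 and 2 of SMB56. Growth factor cultures (GF) were parental cells kept for more than 3 weeks with EGF at 20 ng/mL, bFGF at 20 ng/mL and heparin, with 1 array per line. RAS transformed cells have 3 arrays for SMB21 and 2 each for SMB55 and SMB56, and the labels name no RAS allele and no vector. The study asked how far SMB cells resemble the tumors and normal cerebellum, and then how GF and RAS cultures differ from them.

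Some arrays stood apart from their group. Parental array 1 of SMB56 correlated more highly across genes above the floor with parental array 1 of SMB21 (r = 0.891) than with the other SMB56 parental array (r = 0.834). The latter was most like parental array 2 of SMB55 (r = 0.937), and this array was more like it than like the other SMB55 parental array (r = 0.925). The line labels of the SMB56 parental arrays and of SMB55 parental array 2 therefore do not match their nearest arrays. The labels were kept, and counts without each array are given below. The P6 arrays were the closest pair of the series, with an SD of their gene differences of 0.16 on the log2 scale, against 0.81 for the SMB56 parental pair. The labels of 1 P6 array carry an age entry that belongs to another kind of sample, and the title was followed. The tissues are mixtures and the cultures less so. The summed intensity of 4 measured Purkinje cell markers of 5 listed was 24408 to 25071 in P6 cerebella, 501 to 2012 in tumors and 423 to 2214 in parental cells. For all 5 astrocyte markers it was 23309 to 24555, 1374 to 1720 and 580 to 1884 in the same order, and for all 5 endothelial markers 5679 to 5910, 351 to 830 and 172 to 312. All 8 listed microglia markers summed to 5057 to 6578 in P6 cerebella, 10298 to 16343 in tumors and 246 to 307 in parental cells. None of these markers was listed at 0 on any array. In tissue, fewer cells of a type and less RNA per cell cannot be told apart, and the part of these differences in the comparisons with tissue was not tested.

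The letters of a Gli consensus occur in the promoter windows of a few members, which are shown because Gli factors act downstream of Ptch1. The 9-base Gli consensus TGGGTGGTC (GACCACCCA on the opposite strand) was searched on both strands in RefSeq promoter windows of 300 bases (250 before to 50 after the start, GRCm38.p6), and no other motif was searched. It was present in 4 of the 184 members that had a window (2.17%), and in 78 of 27025 genes of the genome with a window (0.289%). The windows differ in composition too: the median count of CpG before the start was 19 in member windows and 6 in all windows, and its part in the shares was not tested. The members are Cltb, Sfxn1, Zmynd11 and Cetn3. They were picked by the motif and not by the rule for named genes. In the windows of Ptch1 and Gas1 these 9 letters were not found. Of these sites 3 lie before the start, and they are shown in the direction of the gene with the motif in capitals. In Cltb (chr13:54611401-54611449, minus strand) it lies 56 bases before the start on the opposite strand, in Sfxn1 (chr13:54071598-54071646, plus strand) 227 bases before it, and in Zmynd11 (chr13:9765426-9765474, minus strand) 133 bases before it. A match is a run of letters and not evidence of binding.
Cltb: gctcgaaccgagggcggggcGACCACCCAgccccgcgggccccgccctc
Sfxn1: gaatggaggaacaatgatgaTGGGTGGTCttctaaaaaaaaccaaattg
Zmynd11: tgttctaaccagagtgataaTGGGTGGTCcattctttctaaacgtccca

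The shift of the chromosome in an array is the median, over the 208 members, of the log2 difference from the P6 mean, minus the same median over all 12394 genes. A shift of 0 therefore means that the members' median equals that of all genes, of which 5970 lie above the floor. Other chromosomes were taken over their genes above the floor, so their values need not centre on 0. A shift is therefore read beside those of the other chromosomes. The shifts are given as descriptions without a test. In the 3 tumors they were -0.07, -0.09 and -0.05 (SD 0.02). These values lie within the range of the other chromosomes of the same arrays, where chromosome 6 was highest at 0.43, 0.59 and 0.31. The adult cerebellum lay at -0.23. Every other chromosome of that array was also below 0, from -0.28 on chromosome 4 to -0.07 on chromosome 19. Of the members 63.5% lay below the centre there, against 59.0% of the other genes above the floor.

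Parental SMB21 cells had the lowest chromosome 13 values of the parental lines. The shifts of arrays 1 to 4 were -0.40, -0.94, -0.80 and -0.82, and in each of them chromosome 13 was the lowest of the 20 chromosomes. The next lowest, the X chromosome, lay at -0.29, -0.46, -0.46 and -0.37 in these arrays. For the mean of the 4 arrays the shift was -0.72, which corresponds to 0.61 of the P6 level, with quartiles of the members at -1.14 and -0.30. Of the 208 members, 183 (88.0%) lay below the centre, against 45.1% of the other genes above the floor. The shift was much the same for weakly and strongly expressed members: -0.73, -0.67 and -0.74 in the lowest, middle and highest groups by level. For the 73 members with another probe set above the floor, that probe set gave -0.54 and the main one -0.68. The other groups gave less stable values on the same check. SMB56 gave -0.23 and -0.43, SMB55 0.16 and -0.04, and the tumors -0.02 and -0.07.

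Both parental SMB55 arrays lay near 0, at -0.02 and -0.09. Parental SMB56 array 1 lay at -0.64, inside the range of the SMB21 arrays, and array 2 at -0.24. In SMB56 array 1 chromosome 13 was again the lowest, but chromosome 10 at -0.59 and chromosome 7 at -0.50 were close to it. The mean of the SMB56 arrays gave -0.47, with 161 members (77.4%) below the centre against 44.2% of the other genes above the floor. Set against the mean of the other 2 parental lines instead of P6, which leaves the tissue out, the shift was -0.48 in SMB21, 0.56 in SMB55 and -0.09 in SMB56. These comparisons share arrays.

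**Figure D1:**
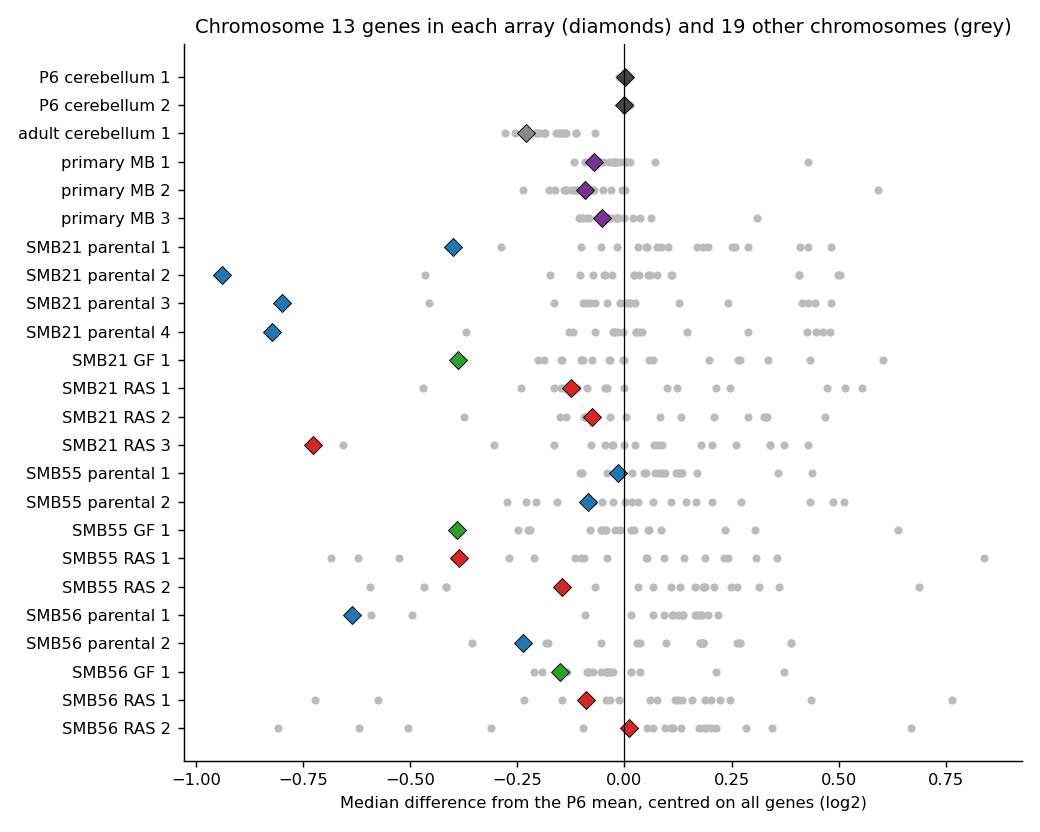
Median log2 difference from the P6 mean, centred on all genes, for chromosome 13 (diamonds, coloured by group) and the 19 other chromosomes (grey points) in each of the 24 arrays. SMB21 parental arrays lie at -0.94 to -0.40, left of every other chromosome of the same array, while the 3 tumors lie at -0.09 to -0.05 among the others.

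Along the chromosome the low values were not evenly laid out in every array. The members were divided in gene order into 10 segments of 20 or 21 genes, and Ptch1 lies in the sixth, from Pcbd2 to Mfsd14b. Parental SMB21 arrays 2, 3 and 4 were low in all 10 segments, between -1.24 and -0.53 in array 2, between -1.22 and -0.60 in array 3, and between -1.11 and -0.59 in array 4. Parental array 1 of the same line lay at -0.37, 0.06 and 0.08 in the first 3 segments, which run from Gdi2 to Tmem14c, and between -1.04 and -0.28 in the other 7, from Nol7 to Zfp131. In array 1 only segments 2 and 3 lay near 0, and segment 1 lay within the range of the other 7.

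The SMB56 pair split at the same place. Array 1 lay at -0.78, -0.82 and -0.77 in the first 3 segments and between -0.95 and -0.26 in the rest. Array 2 lay at -0.21, -0.07 and 0.08 in the first 3 and between -0.62 and -0.17 in the rest. The difference of the 2 arrays was 0.70, 0.81 and 0.84 in the first 3 segments and 0.08 to 0.33 in the other 7. Between SMB21 array 1 and the mean of arrays 2 to 4 the corresponding values were 0.82, 0.92 and 1.07, and then 0.02 to 0.31. Over all members both differences came to 0.33. This split was noticed in the data and not set beforehand, and chromosome 7 differed more, by 0.69, between the SMB56 arrays.

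**Figure D2:**
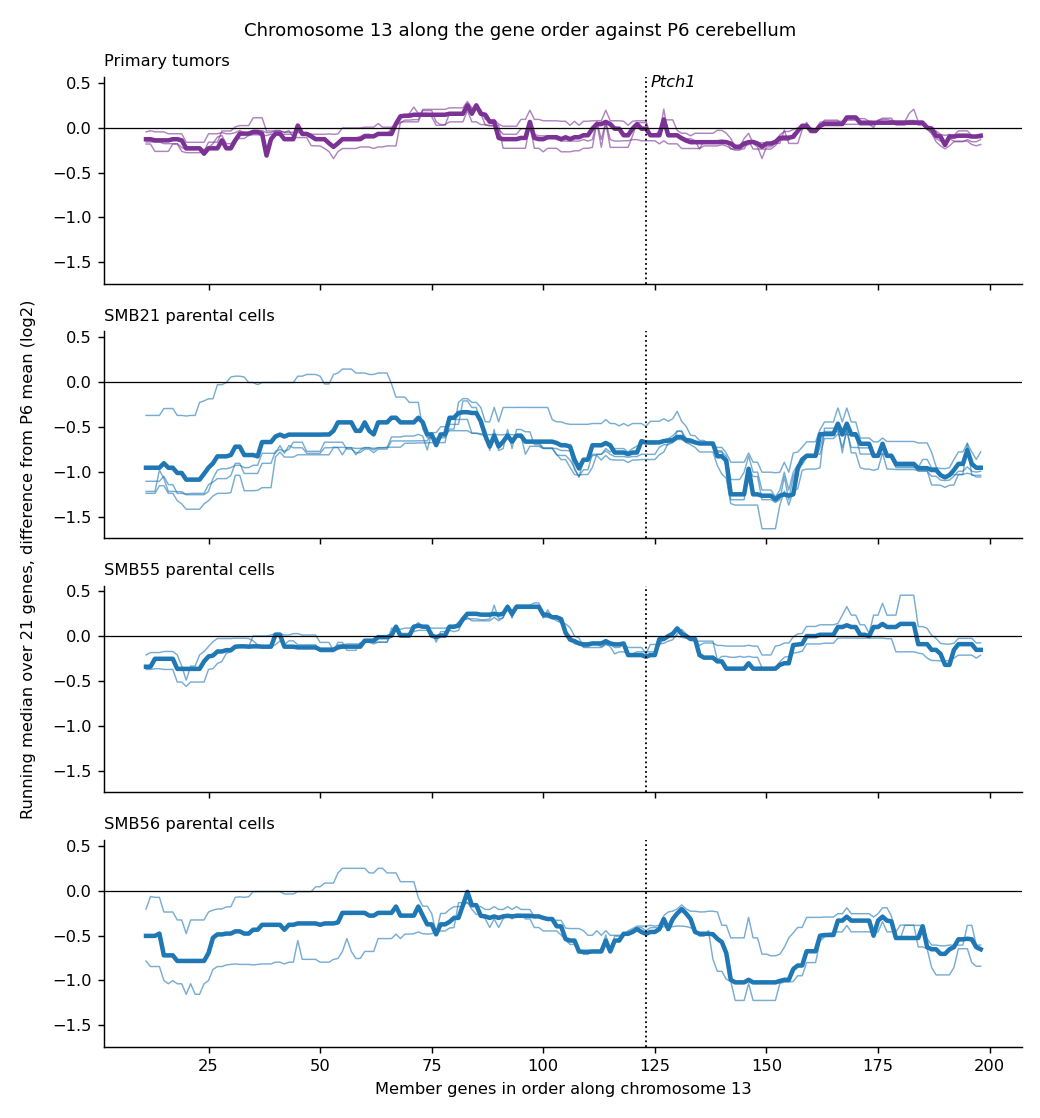
Running median over 21 members of the centred log2 difference from the P6 mean, by gene order along chromosome 13, for tumors and each parental line (thin lines: arrays; thick line: the mean of the arrays; dotted line: Ptch1). Before the Nol7 segment 1 SMB21 array and 1 SMB56 array run above the rest of their line, and after it the arrays of a line run closer together.

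Around Ptch1 itself, the 10 members on each side had a median of -0.73 in SMB21, -0.48 in SMB56, -0.23 in SMB55 and -0.05 in the tumors, centred as above. For the whole chromosome the same arrays gave -0.72, -0.47, -0.09 and -0.09. The level of Ptch1 itself was 12.06 and 11.72 in the P6 cerebella, 12.49 in the adult, and 11.68, 11.47 and 12.96 in the tumors. Parental SMB21 cells gave 11.93, 11.39, 11.37 and 10.84, parental SMB55 cells 11.74 and 12.08, and parental SMB56 cells 12.37 and 11.32. These groups overlap. GF cultures gave 11.94, 11.20 and 10.51 in SMB21, SMB55 and SMB56. RAS cultures gave 10.01, 9.88 and 11.08 in SMB21, 11.13 and 10.22 in SMB55, and 11.10 and 12.06 in SMB56.

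Ptch1 was not called by limma in any comparison at the main setting. The log2 difference was 0.14 (SE 0.43, adjusted p = 0.854) in tumors against P6, -0.18 (SE 0.43, adjusted p = 0.795) in parental cells against P6 and -0.32 (SE 0.39, adjusted p = 0.588) in parental cells against tumors. It was -0.48 (SE 0.42, adjusted p = 0.574) in GF and -0.87 (SE 0.32, adjusted p = 0.0505) in RAS cultures against parental cells. The RAS value lies at the threshold: over 24 alternatives its adjusted p ran from 0.0165 to 0.11, and 10 of them were below 0.05. Ptch1 is itself a known target of Gli factors. The probe set does not tell the mutant from the wild-type RNA as far as the sources used here say, so it does not check the genotype. The other Ptch1 probe set stayed between 6.29 and 6.89 on all arrays.

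**Figure D3:**
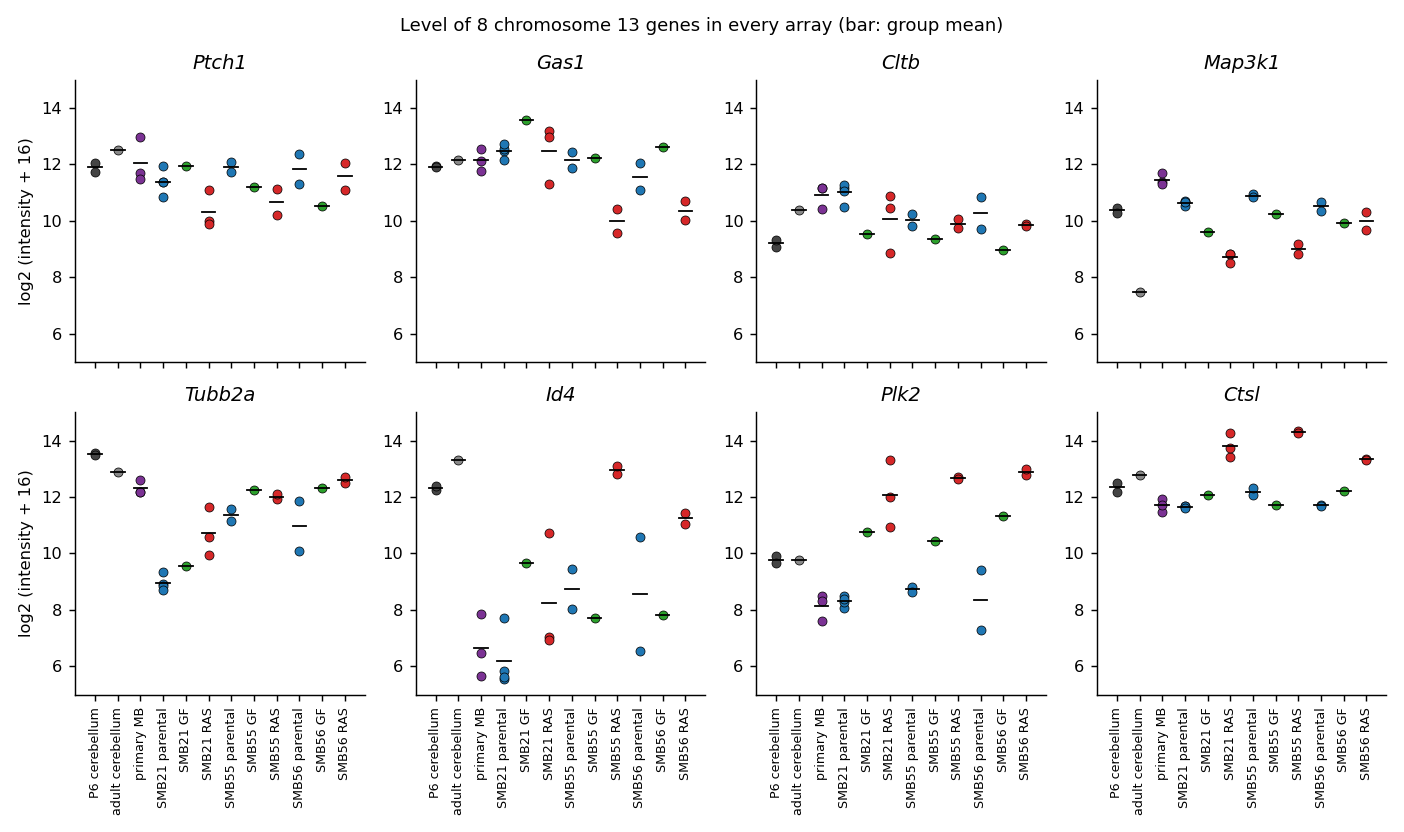
Level of 8 named genes, log2(intensity + 16), in every array by group (points: arrays; bars: group means). Ptch1 overlaps between P6, tumors and parental cells, Tubb2a is lowest in parental SMB21 cells at 8.70 to 9.34, and Plk2 and Ctsl are above the parental arrays of their line in every RAS array.

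Tumors differed from P6 cerebella in few members. A member is called when limma's adjusted p, taken over all 12394 genes, is below 0.05. In tumors 7 members were higher (3.37%, against 4.30% of all genes tested) and 9 lower (4.33%, against 6.68%). Both shares lie near or below the background. Without overlap of the arrays 58 members were higher (27.9%, against 31.5% of all genes) and 70 lower (33.7%, against 23.8%). The median over the members was -0.03, against 0.05 over all genes. Leaving out either P6 array gave 1 call, and 1 was also made with the P6 pair counted as 1 sample. Without tumor 1 or tumor 3 there were 9 or 7.

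Cltb, the light chain b of clathrin in vesicle coats and 1 of the genes with the Gli letters, rose most in the tumors. It read 9.09 and 9.33 in P6 cerebella and 11.17, 10.42 and 11.15 in tumors, a rise of 1.71 (SE 0.34, 3.26-fold, adjusted p = 0.0236). Every tumor lay above both P6 arrays, and the adult cerebellum at 10.39 lay between them. Map3k1, a kinase at the head of a MAP kinase cascade, rose by 1.07 (SE 0.16, 2.10-fold, adjusted p = 0.00899), from 10.47 and 10.29 to 11.37, 11.29 and 11.68. Jarid2, a subunit of the Polycomb complex that methylates histone H3, rose by 0.88, and Cdyl, which reads methylated histones, by 0.76 (adjusted p = 0.0305 and 0.0374).

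The lower members were led by Id4, an inhibitor of basic helix-loop-helix factors that is known from astrocytes and neural precursors. It read 12.24 and 12.40 in P6 cerebella and 6.46, 7.87 and 5.65 in tumors, a difference of -5.67 (SE 0.89, adjusted p = 0.0104). Gpx8, a glutathione peroxidase of the endoplasmic reticulum, fell by 3.67 (SE 0.38, adjusted p = 0.00159), from 11.21 and 11.46 to 7.20, 8.08 and 7.73. Nid1, the basement membrane protein nidogen, fell by 3.07 (SE 0.43, adjusted p = 0.00638), from 11.76 and 11.52 to 8.27, 8.62 and 8.83. Plpp1, a lipid phosphatase, fell by 1.70 (adjusted p = 0.0151). In the same tumors the summed Purkinje, astrocyte and endothelial markers were lower than in P6 and the microglia markers higher. Fibroblast and meninges markers summed to 11548 to 12286 in P6 cerebella and 348 to 2763 in tumors. For granule neuron precursor markers the sums were 38926 to 42219 and 47369 to 52478. A link of these genes to any marker list was not tested. Of 3 sterol synthesis genes listed 2 were measured, and both were lower, as were 4.33% of members and 6.68% of all genes. Hmgcs1, which makes the HMG-CoA of the pathway, fell by 0.99 (adjusted p = 0.0075) and Idi1, an isoprenoid isomerase, by 0.60 (adjusted p = 0.0292).

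In parental SMB cells most calls went one way. Taking 1 mean per line, 6 members were higher than in P6 cerebella (2.88%, against 14.6% of all genes) and 45 lower (21.6%, against 11.0%). Against the tumors 5 members were higher (against 12.4% of all genes) and 43 lower (20.7%, against 8.19%). Over the members the median was -0.36 against P6 and -0.23 against tumors, where all genes had 0.08 and 0.03. The 2 comparisons share the parental arrays. Without overlap of the arrays 12 members were higher than P6 (5.77%, against 22.4% of all genes) and 54 lower (26.0%, against 15.7%). Against tumors 4 were higher (1.92%, against 11.3%) and 36 lower (17.3%, against 9.18%) in this way. Leaving out P6 array 1 left 7 calls against P6, leaving out P6 array 2 or counting the pair as 1 sample left 8, and leaving out tumor 1 or tumor 3 left 30 or 29 against tumors.

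The members called lower than P6 were spread over all 10 segments, with 2 to 8 in each. Among called members the largest falls against P6 were those of Id4 (-4.50, SE 0.89, adjusted p = 0.0129), Nid1 (-3.62, SE 0.43, adjusted p = 0.00184), Tubb2a (-3.10, SE 0.65, adjusted p = 0.0154) and Pfkp (-2.34, SE 0.62, adjusted p = 0.0339). Tubb2a is a beta-tubulin of young neurons, and Pfkp is the platelet form of the glycolytic enzyme phosphofructokinase. Tubb2a showed how far the lines differ: it was 13.56 and 13.49 in P6 cerebella, 12.60, 12.16 and 12.18 in tumors, and 9.34, 8.90, 8.83 and 8.70 in parental SMB21 cells. Parental SMB55 cells gave 11.14 and 11.56 and SMB56 cells 10.07 and 11.86. Each parental array lay below each tumor. Because beta-tubulin genes are close copies of one another, cross-hybridization of this probe set is possible.

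Map1b, a microtubule protein of growing axons, fell by 1.43 against P6 and by 1.21 against tumors (SE 0.14 and 0.12, adjusted p = 0.000726 and 0.00172). It lay at 12.14 and 12.15 in P6 cerebella, at 11.68 to 12.07 in tumors and at 10.20 to 11.12 in parental cells. Kif2a, a motor protein that depolymerizes microtubules, fell by 1.04 against P6 and 0.99 against tumors (SE 0.16 and 0.14, adjusted p = 0.0047 and 0.00545). Among the called members the largest falls against tumors were those of Amph, a protein of endocytosis at synapses, by 1.54 (SE 0.26, adjusted p = 0.00938), and Paip1, which binds the poly(A)-binding protein, by 1.53 (SE 0.30, adjusted p = 0.0153). Glrx, the redox protein glutaredoxin, fell 2.83-fold (adjusted p = 0.00414). Agtpbp1, an enzyme that trims glutamate chains from tubulin and a close neighbour of Ptch1, fell by 1.47 (adjusted p = 0.0272).

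A few members ran against the trend. Cltb was 1.23 higher than in P6 (SE 0.34, adjusted p = 0.0372). Mtrr, which reactivates methionine synthase and is a neighbour of Ptch1, was 0.98 higher (SE 0.18, adjusted p = 0.00964), with 7.66 and 7.59 in P6 cerebella and 7.93 to 8.94 in parental cells. Gpx8 fell by 1.61 against P6 (adjusted p = 0.0221) but was 2.06 higher than in tumors (adjusted p = 0.00859). Idi1 was 0.63 higher than in tumors (adjusted p = 0.0118). The other 3 genes with the Gli letters did not move with Cltb. Zmynd11, a reader of methylated histone H3, fell by 0.81 against P6 and by 0.78 against tumors (SE 0.11 and 0.10, adjusted p = 0.00338 and 0.00403). Cetn3, a centrosome protein, fell by 0.97 and by 0.84 (SE 0.27 and 0.24, adjusted p = 0.0383 and 0.0486). Sfxn1, a mitochondrial serine carrier, differed from P6 by -0.34 (SE 0.14, adjusted p = 0.128) and was not called.

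Of the cell cycle list, 10 of its 15 measured genes were members. Against P6 none was higher and 4 were lower: Ccnh, a cyclin of the CDK-activating kinase, Msh3, a mismatch repair protein, Plk2 and Kif2a. Against tumors Msh3, Kif2a and Dek, a chromatin protein, were lower. Of the 5 developmental transcription factors among the members Id4 was lower than in P6, and Jarid2 was lower than in tumors. Of the 7 growth factor signalling members Ntrk2, the receptor for the neurotrophin BDNF, and Rasa1, a GTPase-activating protein for RAS, were lower than in P6. Against tumors Map3k1 and Rasa1 were lower. Of all 208 members 2.88% were higher and 21.6% lower than in P6, against 14.6% and 11.0% of all genes. Compared with tumors 2.40% of members were higher and 20.7% lower, against 12.4% and 8.19% of all genes. Whether these lists differ from the other members was not tested.

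Taken line by line, SMB21 had the most calls. In parental SMB21 cells 3 members were higher than in P6 (1.44%, against 21.8% of all genes) and 96 lower (46.2%, against 14.6%). Of the other genes above the floor, 27.4% were higher and 12.7% lower. The 3 higher members were Cltb, Mtrr and Iars, an aminoacyl-tRNA synthetase that was chosen after its values were seen. The calls were spread along the chromosome, with 5 to 14 lower members in each of the 10 segments and the most in the segment with Ptch1. Without P6 array 1 the count in both directions was 54, without P6 array 2 it was 57, with the pair as 1 sample 53, and without parental array 1 it was 111.

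SMB55 gave 17 members higher than P6 (8.17%, against 10.7%) and 13 lower (6.25%, against 9.33%). With each array centred this became 13 and 13, and with quantile normalisation 13 and 17. Its total of 30 fell to 7 or 9 without P6 array 1 or 2 and to 18 or 13 without its own array 1 or 2. In SMB56, 3 members were higher than P6 (1.44%, against 11.4%) and 45 lower (21.6%, against 9.90%). Without parental array 1, the one that resembled SMB21, 6 were higher and 25 lower, and without array 2, 1 and 46. Without P6 array 1 or 2 the SMB56 total was 17 or 18. Of the other genes above the floor 6.21% were lower in SMB55 and 7.43% in SMB56.

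Among the lines themselves, parental SMB21 had 0 members higher than the mean of SMB55 and SMB56 (0.00%, against 5.16% of all genes) and 41 lower (19.7%, against 4.85%). At an unadjusted p below 0.05 limma gave 1 higher and 91 lower, where 14.5% and 11.1% of all genes passed. SMB55 had 25 members higher than the mean of the other lines (against 1.90% of all genes) and 0 lower (0.00%, against 1.49%), and 96 and 2 before adjustment, where 8.21% and 8.63% of all genes passed. SMB56 had 0 in either direction, where all genes gave 0.169% higher and 0.121% lower, and 5 and 10 before adjustment, where 4.81% and 5.69% of all genes passed. The SMB21 count was 70 without its array 1 and 16 to 22 without any 1 of its other 3 arrays or of the SMB55 arrays. The SMB55 count was 1 or 6 without its array 1 or 2, 13 without SMB56 array 1, 45 without SMB56 array 2 and 52 without SMB21 array 1 and 16 without SMB21 array 3 or 4. In SMB56 leaving out SMB21 array 1 gave 2 calls, and leaving out its own array 1 or 2 gave 1 or 3.

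**Figure D4:**
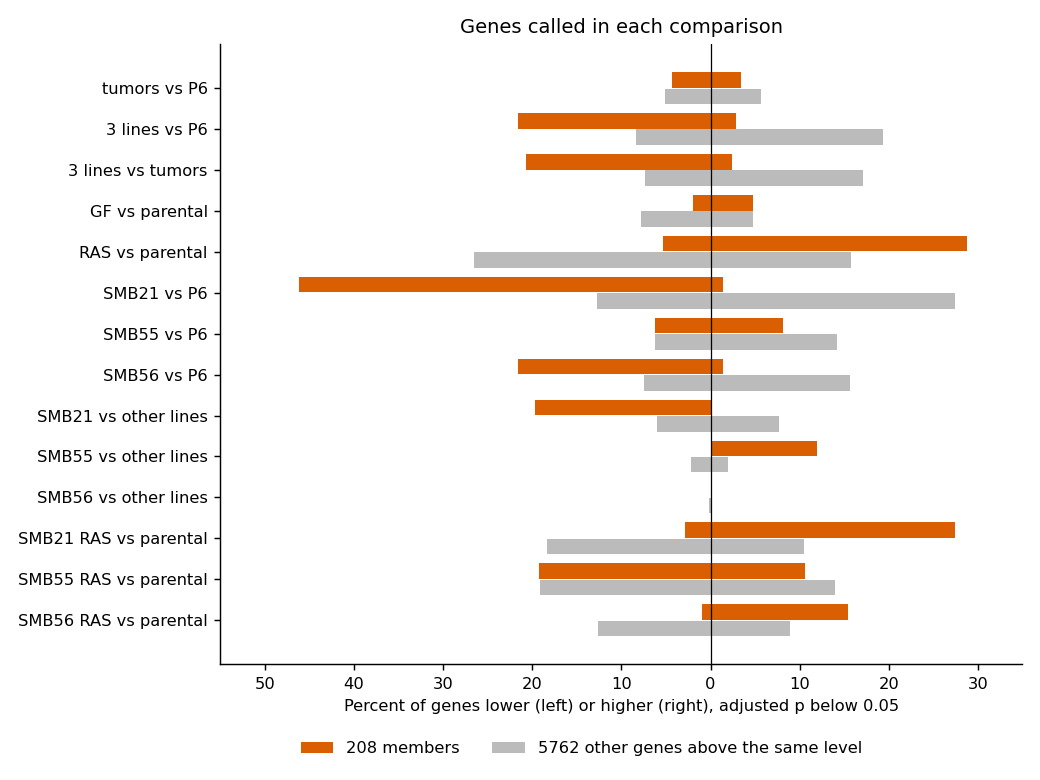
Percent of the 208 members (orange) and of 5762 other genes above the same level (grey) called lower (left) or higher (right) in each comparison, at an adjusted p below 0.05. The left orange bar is longest for SMB21 against P6, at 46.2%, and the right one for RAS against parental cells, at 28.8%.

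Some named members differed widely between the SMB56 parental arrays, and the 3 given here for it were chosen after their values were seen. Vcan, the matrix proteoglycan versican, read 5.75, 5.65, 5.73 and 5.78 in parental SMB21 cells and 5.37 in SMB56 array 1. It read 11.78 in SMB56 array 2, 9.33 and 11.41 in SMB55, and 11.49 and 11.30 in P6 cerebella. Id4 read 6.53 and 10.58 in SMB56 arrays 1 and 2, and Ntrk2 8.43 and 10.73. In each of these genes SMB56 array 1 lay nearer the SMB21 values and array 2 nearer the SMB55 values. Not every named member did so. For Ptch1, SMB56 array 1 at 12.37 lay above the SMB55 arrays, at 11.74 and 12.08. Array 2 at 11.32 lay within the SMB21 range of 10.84 to 11.93.

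Under growth factors the chromosome lay above the parental mean in SMB21 and SMB56 and below it in SMB55. Against that mean the centred shift was 0.32 in SMB21, -0.40 in SMB55 and 0.31 in SMB56, with 1 array each. The next highest chromosomes were 8 at 0.26 in SMB21 and 10 at 0.24 in SMB56. The next lowest in SMB55 was 17 at -0.21. In SMB55 all 10 segments lay below 0, between -0.50 and -0.13. In SMB21 all 10 lay above 0, between 0.05 and 0.58, and in SMB56 9 did, with -0.05 in the fifth. Against P6 the GF arrays of SMB21 and SMB55 lay level, both at -0.39, and that of SMB56 at -0.15. The SMB21 value is close to the -0.40 of parental array 1, which carries the same number as the GF array. Set against that parental array alone, the GF shift was 0.07 in SMB21, -0.42 in SMB55 and 0.49 in SMB56, a comparison added after seeing the data. The SMB56 value depended on which parental array it was set against, being 0.06 without array 1 and 0.49 without array 2.

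Few single genes passed the test in GF cultures: 10 members were higher (4.81%, against 3.99% of all genes) and 4 lower (1.92%, against 4.96%). Without overlap within the lines 17 members were higher (8.17%, against 8.09% of all genes) and 16 lower (7.69%, against 10.6%), which lies near the background. Plk2, a kinase of the polo family that is induced by growth stimuli and neuronal activity, rose most among the called members. It read 8.06, 8.28, 8.5 and 8.37 in parental SMB21 cells and 10.77 in GF, 8.80 and 8.65 in SMB55 and 10.44 in GF, and 7.28 and 9.43 in SMB56 and 11.33 in GF. The GF array was above every parental array of its line, and the rise was 2.36 (SE 0.44, 5.12-fold, adjusted p = 0.00478). Golm1, a Golgi membrane protein and a neighbour of Ptch1, rose by 2.29 (SE 0.35, adjusted p = 0.00167). Epdr1, a secreted ependymin relative, rose by 1.56 (SE 0.35, adjusted p = 0.0125) and Glrx by 1.39 (SE 0.23, adjusted p = 0.00275).

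The 4 lower members were Cltb, Wnk2, Dek and Gadd45g, of which the last was chosen after its values were seen. Cltb fell by 1.20 (SE 0.36, adjusted p = 0.048): the GF arrays read 9.55, 9.35 and 8.98, while parental cells of the same lines read 10.50 to 11.29, 9.82 to 10.25 and 9.70 to 10.86. Wnk2, a kinase known to restrain ERK signalling, fell by 1.09 (SE 0.24, adjusted p = 0.0107). Dek fell by 0.53 (SE 0.14, adjusted p = 0.0288). Gas1, a co-receptor for Sonic hedgehog that lies among the neighbours of Ptch1, had a difference of 0.87 (SE 0.46, adjusted p = 0.283) and was not called. With only 1 GF array per line the count was sensitive: without the SMB56 GF array 3 calls were left, without that of SMB21 6, and with the array number as a block 0.

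RAS transformed cells had more called members than GF cultures, and more called genes in all. Of all genes 14.1% were higher and 17.9% lower with RAS, against 3.99% and 4.96% with GF. There were 7 RAS arrays and 3 GF arrays. The centred shift against the parental mean was 0.58, 0.68 and 0.02 in the SMB21 arrays, -0.31 and -0.12 in SMB55, and 0.32 and 0.41 in SMB56. The mean of the arrays gave 0.42, -0.23 and 0.34 for SMB21, SMB55 and SMB56. For these means the next highest chromosome in SMB21 was 18, at 0.17. In SMB55 chromosome 13 had rank 5 from the lowest of 20 chromosomes, and the lowest were chromosome 19 at -0.49 and the X chromosome at -0.46. In SMB56 it had rank 18 from the lowest of 20, and the highest was chromosome 15 at 0.39. SMB21 RAS array 3 stood apart from arrays 1 and 2: it lay 0.63 below their mean, between 0.46 and 0.80 below it in each segment. Against P6 it lay at -0.73, near the parental arrays, where arrays 1 and 2 lay at -0.12 and -0.08. In that array chromosome 14 was close behind, at -0.66.

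Summed marker intensities differed between parental, GF and RAS arrays. The summed intensity of all 7 granule neuron precursor markers was 19995 to 31814 in parental, 4661 to 15917 in GF and 2658 to 13132 in RAS arrays. All 5 astrocyte markers summed to 580 to 1884, 3160 to 7767 and 2918 to 5766 in the same order, and all 5 fibroblast and meninges markers to 244 to 407, 676 to 1068 and 487 to 5268. The 8 microglia markers summed to 246 to 307, 276 to 489 and 334 to 1072. A sum can rest on single genes of its list. In SMB55 RAS array 1 Cd68 read 9.76, against 5.84 and 5.82 in the parental arrays, while C1qa read 5.50, against 5.63 and 5.52. In SMB21 GF Slc1a3 read 11.51, against 9.27 to 10.53 in parental cells, and Gja1 5.66, against 5.93 to 8.65. In that array Foxc1 read 9.54, against 6.63 to 7.02, and Col1a1 5.50, against 5.36 to 5.86. The part of the markers in the GF and RAS differences was not tested.

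**Figure D5:**
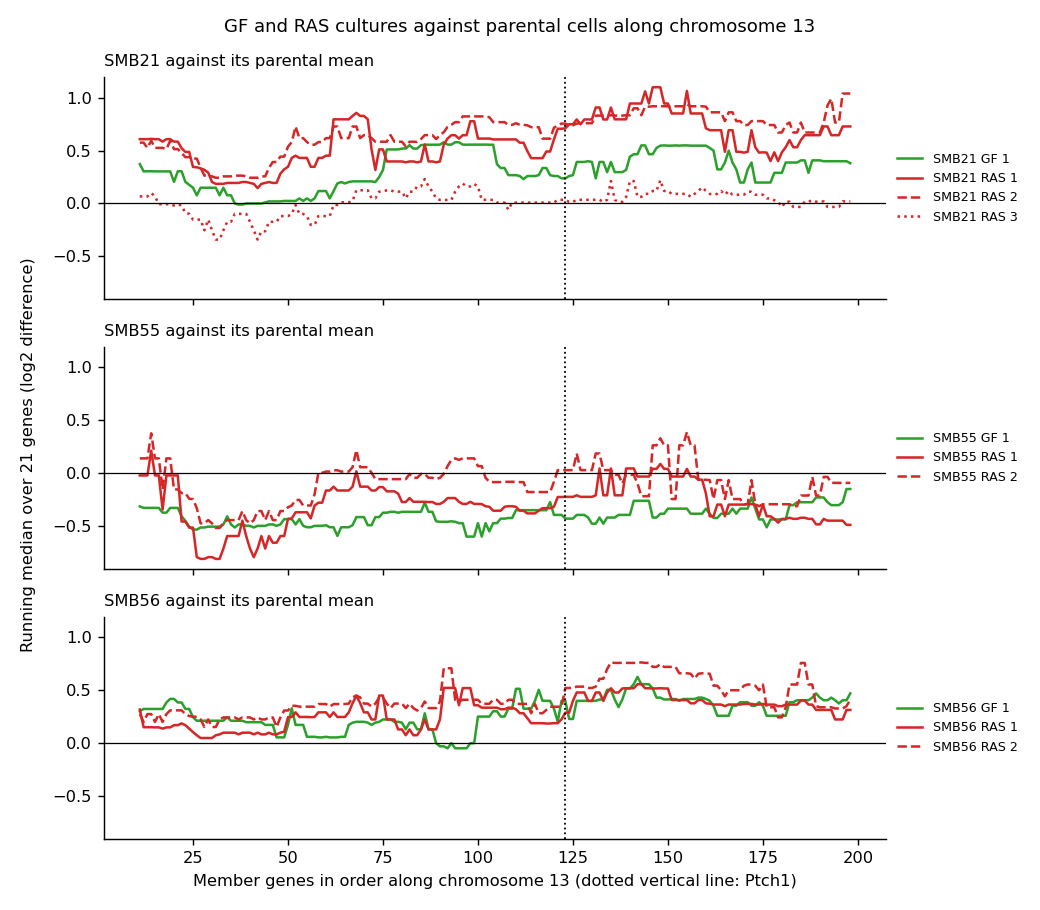
Running median over 21 members of the centred log2 difference of each GF (green) and RAS (red) array from the parental mean of its line, by gene order along chromosome 13 (dotted vertical line: Ptch1). In SMB21, RAS array 3 runs below the other RAS arrays, and the SMB55 GF array runs below 0 where those of SMB21 and SMB56 run mostly above it.

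Over the 3 lines 60 members were higher in RAS than in parental cells (28.8%, against 14.1% of all genes) and 11 lower (5.29%, against 17.9%). Of the other genes above the floor, 15.8% were higher and 26.5% lower. The members' median was 0.17, against -0.05 over all genes. Without overlap within each line 29 members were higher (13.9%, against 6.75% of all genes) and 4 lower (1.92%, against 7.81%). By segment the counts of higher members ran from 3 to 11, with the most from Ccnh to Tnpo1.

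Plk2 rose furthest, by 4.04 (SE 0.34, 16.4-fold, adjusted p = 1.95e-06), to between 10.93 and 13.32 in the 3 SMB21 arrays, to 12.71 and 12.64 in SMB55, and to at least 12.79 in both SMB56 arrays. Every RAS array lay above the GF array of its line. Pfkp rose by 3.87 (SE 0.35, 14.6-fold, adjusted p = 3.34e-06). It read 6.39 to 7.09 in parental SMB21 cells and 12.43, 10.01 and 10.36 with RAS, 7.43 and 8.15 against 10.52 and 10.35 in SMB55, and 6.12 and 6.92 against 11.20 and 10.89 in SMB56. The RAS arrays of each line were thus above its parental arrays by a wide margin. Ctsl, the lysosomal protease cathepsin L and a neighbour of Ptch1, rose by 2.01 (SE 0.15, 4.03-fold, adjusted p = 1.17e-06), from 11.59 to 12.30 in parental cells to 13.31 to 14.35.

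Card19, a mitochondrial protein with a caspase recruitment domain, rose by 2.08 (SE 0.19, adjusted p = 3.92e-06), and Emb, a membrane chaperone of lactate transporters, by 2.17 (SE 0.48, adjusted p = 0.00307). Of the 6 neuronal and matrix members Vcan, Nid1 and Edil3 rose and Map1b fell. Vcan rose by 3.73 (SE 0.87, adjusted p = 0.00424). Its RAS arrays read 10.75 to 11.69 in SMB21, 11.06 and 11.19 in SMB55, and 12.30 and 11.89 in SMB56; the SMB55 ones overlap the parental arrays of their line, and those of SMB21 and SMB56 do not. Nid1 rose by 2.12 (SE 0.42, adjusted p = 0.00154) and Map1b fell by 0.78 (SE 0.23, adjusted p = 0.0187).

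Of the transcription factors, Id4, Sox4 and Mef2c rose and none fell. Id4 rose by 2.86 over the 3 lines (SE 0.85, adjusted p = 0.018), and within single lines it was called in SMB55 only. Its RAS arrays read 10.74, 7.05 and 6.92 in SMB21, where parental cells read 5.56 to 7.73. In SMB55 they read 12.80 and 13.09 against 8.03 and 9.44, and in SMB56 11.44 and 11.05 against 6.53 and 10.58. Sox4, a factor of neural progenitors, rose by 0.65 (SE 0.19, adjusted p = 0.0163). Of the signalling list Il6st, the shared receptor subunit gp130 of interleukin-6 cytokines, rose by 1.41 (SE 0.25, adjusted p = 0.000705), as did Rasa1, while Map3k1 and Dapk1 fell. Map3k1 fell by 1.54 (SE 0.19, adjusted p = 4.51e-05), from 10.54 to 10.70 in SMB21 to 8.82, 8.83 and 8.52, from 10.94 and 10.84 in SMB55 to 9.17 and 8.84, and from 10.69 and 10.35 in SMB56 to 9.68 and 10.31. The arrays do not overlap within a line, but the step was smallest in SMB56. Dapk1, a death-associated kinase and a neighbour of Ptch1, fell by 1.34 (SE 0.29, adjusted p = 0.00274). Wnk2 fell by 1.10 (SE 0.18, adjusted p = 0.000349) and Paip1 by 1.32 (SE 0.34, adjusted p = 0.00851). Both members of the lysosome and immune list rose: Ctsl, and F2r, the thrombin receptor, by 1.04. Neither sterol member was called. Of all 208 members 28.8% were higher with RAS and 5.29% lower, against 14.1% and 17.9% of all genes. Whether the lists differ from the other members was not tested.

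The Hedgehog genes of the chromosome were not called over the 3 lines. Gas1 had a difference of -0.91 (SE 0.35, adjusted p = 0.0615). Within single lines limma called it in SMB55 only, where it fell by 2.16 (SE 0.53, adjusted p = 0.00797), from 12.43 and 11.87 to 9.56 and 10.43. In SMB56 it differed by -1.19 (SE 0.525, adjusted p = 0.143), from 12.04 and 11.08 to 10.02 and 10.72, without overlap. The SMB21 RAS arrays read 11.30, 13.18 and 12.95 and overlapped the parental ones. Limma's interaction test did not call a difference between the lines (adjusted p = 0.117). Gli3, the Gli factor that acts mainly as a repressor, had a mean of 5.41 and fell below the floor. Of 18 Hedgehog genes listed on any chromosome 14 were measured, from a list chosen with earlier results known. In tumors Gli1, Boc, Ccnd1 and Sfrp1 were higher than in P6 and none was lower, where 4.30% and 6.68% of all genes were called. Gli1, a transcriptional target and effector of the pathway, was 1.67 higher (SE 0.30, adjusted p = 0.016). In parental cells 6 were higher than in P6 and 1 lower, where 14.6% and 11.0% of all genes were called. The lower one was Spop, at -4.40 (SE 0.44, adjusted p = 0.000915). In GF cultures 0 were higher and 3 lower, where 3.99% and 4.96% of all genes were called. In RAS cultures 2 were higher and 7 lower, where 14.1% and 17.9% of all genes were called. Gli1 lay at -2.04 in GF and -2.75 in RAS cultures.

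RAS responses were then taken within each line. In SMB21 57 members were higher (27.4%, against 10.4% of all genes) and 6 lower (2.88%, against 11.9%). Without RAS array 3 it was 97 higher and 5 lower, and without RAS array 1 40 in all. In SMB55 22 were higher (10.6%, against 12.3%) and 40 lower (19.2%, against 12.5%), where 19.1% of the other genes above the floor were lower. Without SMB55 parental array 1 the total fell to 22, and without RAS array 1 to 30.

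In SMB56 32 members were higher (15.4%, against 8.10%) and 2 lower (0.962%, against 7.62%). The 2 were Paip1 and Cplx2, a complexin of synaptic vesicle release that was chosen after its values were seen. Without SMB56 parental array 1 the total was 9, without array 2 it was 51, and without RAS array 1 or 2 it was 16 or 12. A test of the difference itself, the interaction of line and RAS, called 15 members (7.21%, against 6.45% of all genes), which is near the background. They included Map3k1 (adjusted p = 0.00889), Nid1 (adjusted p = 0.0158) and Paip1 (adjusted p = 0.0415). Without SMB21 RAS array 3 the count was 45, without SMB56 parental array 2 30, without SMB21 parental array 1 28, and without any 1 of 6 other arrays 6 to 9.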

How the data were processed

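The deposited values are 1 linear intensity per probe set and array, from 24 Affymetrix arrays hybridized by the manufacturer's protocol, per the labels. The authors' summary and normalisation methods were not given in the sources used here. Medians of the arrays lay between 188.8 and 245.1 and values between 10.0 and 37842, so changes of dim genes are compressed. Array number, not read depth, limits the precision. Of 22690 probe sets 20393 had 1 gene symbol, 691 several and 1606 none, which left 12394 genes. Symbols came from the platform annotation, and the chromosome and order of genes from a RefSeq gene table (GRCm38.p6), whose coordinates are not printed. Promoter windows and their coordinates are RefSeq's, of the same build.

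Values were used as log2(intensity + 16). Linear models were fitted to all 12394 genes with limma 3.58.1 in R 4.3.3 (lmFit, eBayes, two-sided, Benjamini-Hochberg, threshold 0.05), on the deposited scale without centring. The tissue fit held P6, adult and tumor arrays and 1 mean per parental line. The culture fit held 18 arrays with treatment and line as terms. A fit of 12 groups gave the single lines, the lines against one another, and the interaction of line and RAS. The fits were tested on simulated data. Medians over the members were centred on all genes and given no p. The titles call replicates biological but name no animal or culture, so p-values measure the spread between these samples, which may be technical, and in cultures hold for these 3 lines only.

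The members, the gene lists and the rule for named genes were chosen with earlier results of these data known. The rule takes Ptch1, Gli3, Gas1, the 10 members on each side of Ptch1, the 4 largest rises and falls per comparison among called members whose arrays do not overlap, and up to 3 called members of each list. It passes over clone-like names. List members named beside a count of 5 or fewer that the rule does not take were chosen after their values were seen. Array numbers do not pair RAS and parental arrays (r from -0.15 to -0.02). For GF the correlations were 0.22, 0.34 and 0.10 as deviations that include the line. The alternatives were another pseudocount, floor, centring, control, probe set rule, normalisation and fit, a replicate block, and each array left out. The P6 arrays counted as 1 sample, and GF against the parental array of its number, were added after seeing the data.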

Additional observations from a re-analysis of the deposited data

Results flagged for a closer look

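In the 4 parental SMB21 arrays 54 sets of values were checked, the levels of 53 named genes and the chromosome shift. In 6 of them, all gene levels, an array lay far from the others, where chance gives about 1 in 20. The sets share the same 4 arrays, so they are not independent and the count does not measure an excess. The measure is the gap to the nearest array over the whole range. It was 0.963 for Uqcrb (array 1 at 13.70, the others 13.36 to 13.37) and 0.879 for Id4 (array 1 at 7.73, the others 5.56 to 5.82). It was 0.865 for Emb (array 1 at 6.46, the others 9.11 to 9.52) and 0.837 for Ptdss1 (array 1 at 9.06, the others 9.52 to 9.61). For Rmi1 it was 0.891 (array 3 at 8.52, the others 8.75 to 8.78) and for Map3k1 0.832 (array 2 at 10.54, the others 10.68 to 10.70).

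The response to RAS differed between lines by limma's interaction test in 15 members (7.21%, against 6.45% of all genes), which is near the background. They include Map3k1 (adjusted p = 0.00889), Nid1 (adjusted p = 0.0158) and Paip1 (adjusted p = 0.0415). The shift of the chromosome against parental cells went opposite ways in the lines, and this difference was not tested. With GF it was 0.32 in SMB21, -0.40 in SMB55 and 0.31 in SMB56, beyond every other chromosome of the same array. With RAS it was 0.42 in SMB21, also beyond the others, -0.23 in SMB55 and 0.34 in SMB56. In SMB55 RAS cells chromosome 13 had rank 5 from the lowest of 20, and chromosomes 19 and X were lowest, at -0.49 and -0.46. In SMB56 RAS cells it had rank 18 from the lowest of 20, and chromosome 15 was highest, at 0.39.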

How the results depend on the processing

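With all 459 measured genes of the chromosome in place of the members, the called genes numbered 43 for tumors and 85 for parental lines against P6, 89 for parental lines against tumors, 22 for GF and 122 for RAS. They numbered 157, 69 and 82 for SMB21, SMB55 and SMB56 against P6, 98, 99 and 61 for RAS in these lines, and 26 for the RAS response by line. More genes enter there by construction. With a floor of 7.5, tumors against P6 had 25 calls. With the P6 pair as 1 sample, the calls against P6 were 1 for tumors, 8 for parental lines and 53, 7 and 15 for SMB21, SMB55 and SMB56. Fits restricted to the groups compared gave 32 for tumors against P6 and 30 for parental lines against tumors. A replicate block left 0 of the 14 GF calls and 53 of the 71 RAS calls in number. The causes of these changes were not tested.

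Leaving out each array in turn gave 1 to 12 calls for tumors against P6, 7 to 54 for parental lines against P6, 29 to 55 for parental lines against tumors, 3 to 17 for GF, 62 to 77 for RAS and 6 to 45 for the RAS response by line. It gave 54 to 111, 7 to 18 and 17 to 47 for SMB21, SMB55 and SMB56 against P6, 16 to 70, 1 to 52 and 0 to 3 against the other lines, and 40 to 102, 22 to 45 and 9 to 51 for RAS in the 3 lines. The shift against P6 ran from -0.82 to -0.68 in SMB21, from -0.0886 to -0.0159 in SMB55 and from -0.64 to -0.24 in SMB56. In the tumors it ran from -0.07 to -0.07, from -0.10 to -0.08 and from -0.05 to -0.04. Against parental cells it ran from 0.25 to 0.45, from -0.42 to -0.32 and from 0.06 to 0.49 for GF, and from 0.28 to 0.62, from -0.31 to -0.12 and from 0.22 to 0.59 for RAS.

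The shifts depended on the setting as well. Over all measured genes SMB21 gave -0.35, SMB55 -0.07 and SMB56 -0.21, the tumors -0.0377, -0.0199 and -0.0237, GF 0.11, -0.12 and 0.10 and RAS 0.16, -0.0342 and 0.13 in SMB21, SMB55 and SMB56. Against the parental array of the same number, a replicate block added after seeing the data, SMB21 GF gave 0.0703 in place of 0.32. Centred on genes above the floor, SMB55 gave -0.17, SMB55 GF -0.32 and tumor 2 -0.0175. Against all cerebella SMB55 turned to 0.0153, tumor 1 to 0.005, tumor 2 gave -0.0305 and tumor 3 turned to 0.0199. With the mean of probe sets SMB55 gave -0.0086 and the tumors -0.0431, -0.0568 and -0.0242. Without centring SMB55 gave -0.0385, the other tumors -0.0278 and -0.0509, and tumor 3 turned to 0.0051. The mean of probe sets also turned Ercc6l2 against tumors to 0.078 and Kif2a in SMB55 against P6 to 0.091. The counts that follow cover the 5 comparisons over tumors or all lines, and leave out results of single lines such as that of Kif2a. Of 1880 alternatives for 92 called results of named genes, 1645 kept direction and call, 234 lost the call and 1, that of Ercc6l2, reversed. Of the alternatives for 173 results of named genes that were not called, 67 gave a call. They include 10 of 24 for Ptch1 in RAS against parental SMB, where the adjusted p ran from 0.0165 to 0.11.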
